A study of Mus musculus with 32 samples.

Results

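Livers of mice lacking thyroid hormone receptor beta were compared with livers of wild-type mice, in both cases after chemical injury and a final period of thyroid hormone replacement. The comparison was made from 8 of the 32 bulk RNA-seq libraries of the study, 4 from knockout mice (KO) and 4 from wild-type mice (WT), chosen by their labels, and it ran across the 15599 genes that passed a filter on low counts. All 8 mice were fed a PTU/LID diet, in which propylthiouracil blocks thyroid hormone production and low iodine deprives the gland of its substrate. All 8 received carbon tetrachloride (CCl4), an agent that hepatocytes turn into a toxic radical, at 0.4 µl/g in 9 injections, given 2 per week over 4 weeks. During the last week the drinking water of all 8 carried 1 µg/ml of triiodothyronine (T3), the active hormone, and liver RNA was taken 24 h after the final CCl4 injection. The groups of the study that served to set this comparison in context were KO and WT livers on T3 with oil in place of CCl4, and KO and WT livers on CCl4 with PBS in place of T3, each with 4 mice on the same diet. The labels give neither the strain, age and sex of the mice nor the allele behind the knockout. Counts of the Y-linked genes Ddx3y, Uty, Kdm5d and Eif2s3y were 0 in all 8 libraries.

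Thyroid hormone acts on genes through nuclear receptors encoded by Thra and Thrb, of which the beta form is the main one in hepatocytes. The receptors sit on DNA with a retinoid X receptor partner, hold co-repressors in the absence of T3 and exchange them for co-activators when T3 binds. In liver the hormone is known for raising the deiodinase Dio1, the lipogenic regulator Thrsp, lipid synthesis, bile acid synthesis and mitochondrial respiration. In chronic injury, hepatic stellate cells become myofibroblasts that lay down collagen, while macrophages both feed and clear the scar.

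Promoter sequences are shown for the genes among the known T3 targets that fell most, since these are the DNA on which receptors of this family are studied. Of the 6 called T3 target genes with the largest falls, 3 had a RefSeq promoter entry on GRCm38.p6, covering 250 bases before to 50 after the gene's start. Each is printed 5′ to 3′ on the strand of its gene, and capitals mark matches of AGGTNA, a relaxed form of the receptor half-site AGGTCA that was chosen after the sequences had been searched. The Thrsp window lies at chr7:97417501-97417800 on the minus strand and has its match on the strand opposite to the gene, 114 bases before the start. The Dio1 window lies at chr4:107307119-107307418 on the minus strand, with a match on the gene's own strand 180 bases before the start. The Me1 window, 1 of 2 listed, lies at chr9:86695865-86696164 on the minus strand and has no match.
Thrsp: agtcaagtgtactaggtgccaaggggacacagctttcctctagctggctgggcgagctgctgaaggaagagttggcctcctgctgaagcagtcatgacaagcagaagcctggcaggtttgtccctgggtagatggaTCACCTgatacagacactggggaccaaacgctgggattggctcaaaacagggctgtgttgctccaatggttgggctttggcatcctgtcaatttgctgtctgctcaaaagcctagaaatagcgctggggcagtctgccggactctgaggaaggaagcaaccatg
Dio1: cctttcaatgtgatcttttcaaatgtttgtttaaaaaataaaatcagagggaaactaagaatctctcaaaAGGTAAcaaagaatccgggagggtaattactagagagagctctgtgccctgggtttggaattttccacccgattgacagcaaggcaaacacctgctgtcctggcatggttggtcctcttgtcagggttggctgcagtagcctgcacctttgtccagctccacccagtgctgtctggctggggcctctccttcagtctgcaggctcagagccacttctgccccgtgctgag
Me1: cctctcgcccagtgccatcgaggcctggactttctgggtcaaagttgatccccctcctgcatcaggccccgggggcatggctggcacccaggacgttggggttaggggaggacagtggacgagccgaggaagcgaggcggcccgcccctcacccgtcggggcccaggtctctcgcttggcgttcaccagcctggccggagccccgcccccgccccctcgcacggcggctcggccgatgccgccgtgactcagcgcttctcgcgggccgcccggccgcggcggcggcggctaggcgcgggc

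None of these windows held AGGTCA on either strand, nor DR4, in which that half-site is repeated on 1 strand after a spacer of 4 bases. Among 32817 promoter windows of the same length, 16.3% held AGGTCA, 42.3% held AGGTNA and 0.0152% held DR4, so the relaxed half-site is common among promoters. These matches describe letters in short windows and say nothing about where the receptor was bound.

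The libraries held 17109426 to 22842766 counts in KO and 18093658 to 25562244 counts in WT, and the first principal component of the 8 libraries, with 57.8% of the variance, separated KO from WT. Counts from mitochondrial genes made up 3.72 to 4.68% in KO libraries and 4.92 to 6.19% in WT libraries, and the 10 most abundant genes took 18.8 to 21.7% in KO libraries and 16.96 to 17.99% in WT libraries. Values are given in counts-per-million units (CPM) after TMM scaling, a correction for differences in library composition, so that levels are comparable between libraries but not between genes of different length. A gene was called when the edgeR quasi-likelihood F test gave a Benjamini-Hochberg adjusted p under 0.05, and fold changes are log2 values of KO over WT with their standard error (SE), n = 4 mice per group.

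Thrb, on chromosome 14 from 17660261 to 18038090 (GRCm38), was read in all KO livers. It had 24.4, 19.98, 15.9 and 20.3 CPM in KO livers, against 43.8, 40.9, 44.4 and 32.8 CPM in WT livers. The groups did not overlap, and the gene fell by 1.01 ± 0.21 on the log2 scale (adjusted p = 0.00097). A count over the whole gene does not show which exon the knockout allele lacks, so the remaining reads check the labels only in part. Thra, the other receptor gene, had 9.42, 9.19, 9.18 and 5.69 CPM in KO livers, against 9.50, 15.005, 12.985 and 13.3 CPM in WT livers. Its fall of 0.59 ± 0.21 passed the test narrowly (adjusted p = 0.042), and the call was lost when any of 6 libraries was left out (KO 2, 3 or 4, WT 2, 3 or 4, adjusted p 0.0577 to 0.158). The call was also lost with libraries scaled by total counts alone (-0.44, adjusted p = 0.135) and with no filter on low counts (adjusted p = 0.0846). With a block for replicate number it was lost too (adjusted p = 0.0503, and 0.0757 with the 8 libraries alone).

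KO livers differed from WT livers in 3566 genes, 22.9% of those tested, of which 1621 (10.4%) were higher and 1945 (12.5%) lower in KO livers. Counts of list members below are to be read beside these shares. The median log2 fold change of all genes tested was 0.02, and that of the called genes in absolute size was 0.90. A change of at least 1 log2 unit was seen in 741 of the higher and 818 of the lower genes. Among all genes tested, 30.3% had 4 KO values entirely above or below the 4 WT values, and 3111 of the called genes did. With libraries scaled by total counts alone, the median of all genes shifted up by 0.14 and the split became 2174 higher and 1383 lower. Directions below are therefore given relative to TMM scaling. Of the called genes, 3003 were also called with total counts alone. None of these changed sign, but a shift this small would rarely turn the sign of a called gene. In bulk tissue, fewer cells of a type and less RNA of a gene per cell cannot be told apart. Within 10 Mb of Thrb, a window chosen after the data were seen, 21 of 86 genes tested were called (24.4%), 4 higher and 17 lower.

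**Figure D1:**
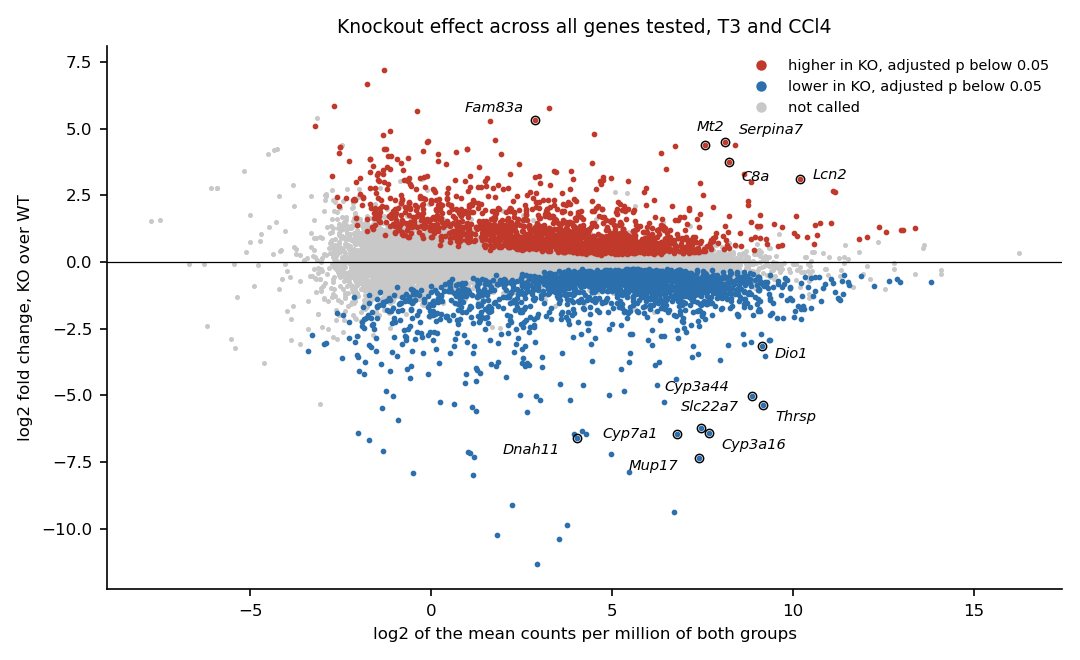
Each point is a gene tested, with the log2 of its mean CPM over both groups on the x axis and the log2 fold change of KO over WT on the y axis; red and blue points are genes called higher and lower in KO. Cyp7a1 (-6.44), Cyp3a16 (-6.41) and Thrsp (-5.36) lie far below 0, and Serpina7 (4.49) and Mt2 (4.36) far above it.

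The deepest falls were in genes nearly silent in KO livers. Elovl3, a fatty acid elongase, had 0 counts in all 4 KO livers and 574 counts over the 4 WT livers, which makes it at least 206-fold lower in KO when a floor of 3 counts over the group is used. Wfdc16 had 1 count over all KO livers and 1818 over all WT livers, a ratio of 1957 with a 95% counting interval of 350.8 to 77350. Dnah11, an axonemal dynein heavy chain, had the smallest adjusted p of all named genes (9.9e-14), with 0.176 to 0.506 CPM in KO livers and 19.9 to 40.7 CPM in WT livers. Cep126 (0.220 to 0.442 CPM in KO, 13.7 to 52.03 CPM in WT), Col4a3, a basement membrane collagen (0.0632 to 0.881 CPM in KO, 9.60 to 74.3 CPM in WT), and Fndc5, the precursor of irisin (0.444 to 1.01 CPM in KO, 22.0 to 30.1 CPM in WT), showed the same separation. Npnt, a basement membrane adhesion protein, fell by 5.03 ± 0.36. The falls of Ginm1 (1.54 ± 0.11) and Dirc2 (1.60 ± 0.13), smaller than these but regular, were among the 10 with the smallest adjusted p. Except for Ginm1 and Dirc2, these genes lay at or under 1.01 CPM in every KO liver and at or above 6.21 CPM in every WT liver. The largest changes and the smallest adjusted p were named only among genes without overlap between groups. Separation was thus a condition of their naming and not a result.

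Members of the major urinary protein and Cyp3a families stood among the falls as well. Mup17 had 1.59, 4.57, 0.370 and 1.71 CPM in KO livers, against 102, 760, 271 and 206 CPM in WT livers. Cyp3a16 had 3.52, 9.06, 2.48 and 3.92 CPM in KO livers, against 275, 593, 287 and 455 CPM in WT livers, and Cyp3a44 had 15.4 to 55.4 CPM in KO livers and 518 to 1217 CPM in WT livers. These genes have near-identical copies, as do Mup15, Mup18, Mup-ps12, Mup-ps13, Cyp3a63-ps and Cyp3a41a, and how the deposited counts were shared between copies is not given in the sources used here, so values of single members are uncertain.

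The largest rises joined secreted proteins, metal binding proteins and injury genes. Serpina7, thyroxine-binding globulin, had 662, 461, 381 and 602 CPM in KO livers, against 49.5, 26.9, 13.6 and 3.92 CPM in WT livers (log2 fold change 4.49 ± 0.66, adjusted p = 1.5e-05). C8a, a subunit of the complement membrane attack complex, had 359 to 711 CPM in KO livers and 13.3 to 84.2 CPM in WT livers. The metallothioneins Mt1 and Mt2, small metal-binding proteins, had 311 to 1244 and 214 to 673 CPM in KO livers, against 12.1 to 64.3 and 6.33 to 36.4 CPM in WT livers. Fam83a, Inava and the AP-1 subunit Fosl1 lay under 1 CPM in every WT liver and between 2.16 and 18.1 CPM in KO livers. The chemokine Cxcl1, a neutrophil attractant, spread widely in KO livers, with 5.77, 14.1, 35.1 and 106 CPM, against 2.14 to 4.85 CPM in WT livers. Serpina1e and Serpina4-ps1, of a family with close copies, rose by 4.10 ± 0.83 and 5.76 ± 1.15.

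Among 15 receptors, retinoid X partners and coregulators, 4 fell (26.7%, against 12.5% of all genes tested) and none rose. The 4 include Thrb, the gene knocked out, so this share is partly set by the design. The median was -0.23, against 0.02 for all genes tested. The count was 1, Thrb alone, with total-count scaling or with no filter and 2 without KO 2, WT 2 or WT 4. Besides both receptors, the genes that fell were the retinoid X receptor Rxrb, at -0.34 ± 0.09, and the mediator subunit Med1, at -0.33 ± 0.11. Med1 lost its call without KO 1, KO 2, WT 2 or WT 4 (adjusted p 0.0622 to 0.125), and with total-count scaling neither was called (Med1 at -0.18, adjusted p = 0.378, Rxrb at -0.19, adjusted p = 0.262), nor were they without a filter (adjusted p = 0.167 and 0.0813). Of 15 T3 target genes of liver, 8 fell and none rose (median -1.37, and -0.91 without WT 1). Dio1, the enzyme that converts thyroxine to T3, had 135, 111, 77.3 and 131 CPM in KO livers, against 844, 1051, 985 and 1137 CPM in WT livers. The fall of 3.14 ± 0.30 (adjusted p = 1.5e-08) left KO livers with every value under the lowest WT value. Thrsp, a nuclear protein that promotes lipid synthesis, had 18.5, 28.2, 18.4 and 43.5 CPM in KO livers, against 1218, 689, 786 and 1747 CPM in WT livers (log2 fold change -5.36 ± 0.64, adjusted p = 6.7e-07).

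Malic enzyme Me1, which supplies NADPH for fat synthesis, had 144, 129, 151 and 162 CPM in KO livers, against 1549, 649, 542 and 1122 CPM in WT livers. The mitochondrial glycerol phosphate dehydrogenase Gpd2 had 50.1, 38.7, 43.05 and 35.01 CPM in KO livers, against 134, 122, 125 and 110 CPM in WT livers. Neither gene overlapped between groups, and the WT values of Me1 were the more scattered. Idh3a, a subunit of isocitrate dehydrogenase, fell by 2.02 ± 0.29 and the co-repressor Hr, a classic T3-induced gene, by 2.05 ± 0.49. The 7 members that did not pass the test ran between -1.37 and 1.62, among them G6pc at -1.37 ± 0.77 and the hepatokine Fgf21 at 1.62 ± 0.78.

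**Figure D2:**
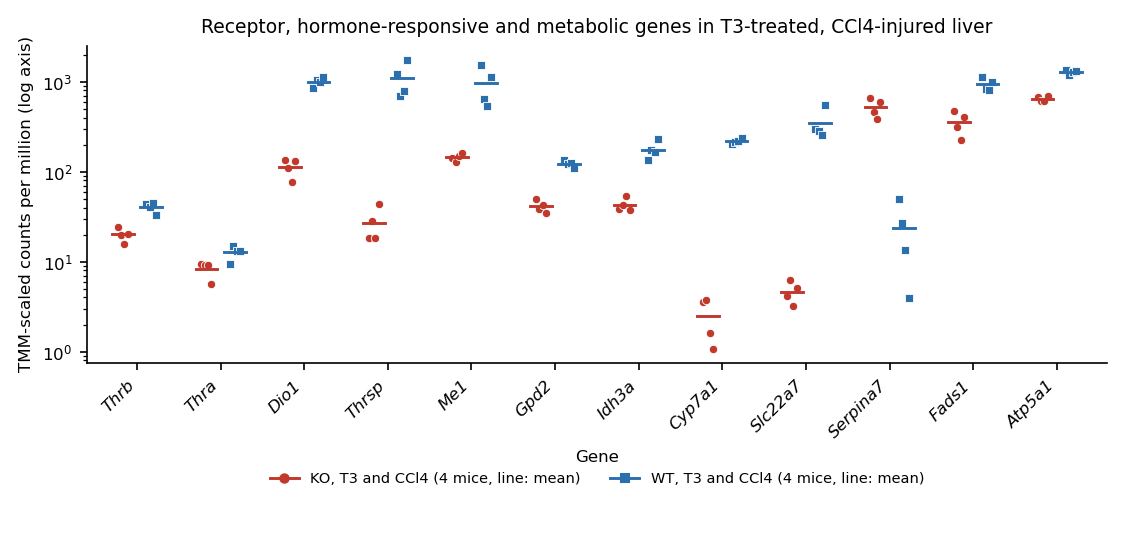
Points are TMM-scaled CPM of single mice on a log axis, KO on the left (red circles) and WT on the right (blue squares) of each gene, with lines at the group means. Thrb keeps 15.9 to 24.4 CPM in KO livers, while Cyp7a1, Thrsp and Slc22a7 lie between 1.07 and 43.5 CPM in KO livers and between 205 and 1747 CPM in WT livers, and Serpina7 runs the other way.

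Of 11 genes of hormone transport and breakdown that were tested, 4 fell, Serpina7 rose and 6 were not called, at -2.39 to 0.41 (median -0.91). Slc16a10, a transporter of aromatic amino acids and thyroid hormone, had 53.1 to 78.4 CPM in KO livers and 205 to 287 CPM in WT livers (log2 fold change -1.86 ± 0.20, adjusted p = 1.1e-07). Slco1a4, an organic anion transporter, fell by 2.09 ± 0.49, the sulfotransferase Sult1a1 by 0.91 ± 0.20 and the glucuronosyltransferase Ugt1a1 by 1.75 ± 0.28. Ugt1a1 shares exons with other Ugt1a genes, so its reads cannot be assigned to it alone.

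Of 15 lipogenesis genes, 11 fell and none rose (median -1.42). Mlxipl, which encodes the glucose-sensing factor ChREBP, had 232, 253, 207 and 271 CPM in KO livers, against 931, 773, 678 and 911 CPM in WT livers (log2 fold change -1.77 ± 0.27, adjusted p = 2.7e-05). Acss2, which makes acetyl-CoA from acetate, fell by 3.12 ± 0.66, the acetyl-CoA carboxylase Acacb by 2.23 ± 0.47, the fatty acid synthase Fasn by 1.78 ± 0.45, the elongase Elovl6 by 1.81 ± 0.35 and the desaturase Fads1 by 1.42 ± 0.28. Srebf1, the other transcription factor of this pathway, was at -0.25 ± 0.30 and did not pass the test (adjusted p = 0.59), and neither did Scd1 (-1.02 ± 0.48) or Acly (-0.75 ± 0.43).

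Cholesterol synthesis moved less clearly. All 20 genes tested had negative log2 fold changes, but 5 passed the test (median -0.85): Pmvk, a mevalonate pathway kinase, fell by 1.64 ± 0.40, and Nsdhl, Msmo1 and Hsd17b7, enzymes of the later steps, fell by 0.87 to 1.18. Each of these 3 lost its call without any of 4 or 6 libraries (adjusted p 0.0506 to 0.142). The count of the list depended on single libraries as well. It was 2 without KO 2, KO 4 or WT 1, 3 without WT 3 and 1 without KO 3 or WT 4, it was 2 with libraries scaled by total counts alone, and 11 when only the 8 libraries entered the fit. Fatty acid oxidation and ketogenesis had 3 lower members of 19 (15.8%, against 12.5% of all genes tested) and 1 higher (5.26%, against 10.4%), shares near those of all genes. The median of -0.33 was -0.21 without KO 2, -0.18 without KO 3 and -0.17 without WT 1, and the count of lower ones was 1 without KO 2, WT 1, WT 2 or WT 3 and 5 without WT 4. Among them Hadh, a beta-oxidation dehydrogenase, had 138 to 251 CPM in KO livers and 293 to 480 CPM in WT livers. The call of Acadvl was lost without any of 5 libraries (adjusted p 0.0663 to 0.101), that of Cyp4a10 without any of 6 (0.0551 to 0.135) and that of the higher thioesterase Acot1 without any of 6 (0.0542 to 0.0963).

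Of 13 bile acid genes, of synthesis and of transport, 9 fell and none rose (median -1.38). Cyp7a1, the rate-limiting enzyme of the classical pathway, on chromosome 4 from 6265612 to 6275633, had 3.52, 3.77, 1.63 and 1.07 CPM in KO livers, against 205, 216, 219 and 239 CPM in WT livers. The WT values were close to each other, and the highest KO value lay far below the lowest of them (log2 fold change -6.44 ± 1.10, adjusted p = 0.0001). Cyp7b1, of the alternative pathway, fell by 2.86 ± 0.32, and Cyp27a1, which opens that pathway, by 1.85 ± 0.28. The export pump Abcb11 had 183 to 407 CPM in KO livers and 897 to 1283 CPM in WT livers, and the uptake carrier Slc10a1 had 92.0 to 183 CPM in KO livers and 473 to 657 CPM in WT livers.

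All 20 nuclear genes of oxidative phosphorylation that were tested fell, from every complex of the chain, by 0.48 to 1.15 on the log2 scale (median -0.80), and none of them overlapped between groups. Sdhd, a membrane anchor of succinate dehydrogenase, had 159, 144, 147 and 149 CPM in KO livers, against 350, 277, 294 and 344 CPM in WT livers. Atp5a1, the alpha subunit of ATP synthase, had 675, 613, 617 and 687 CPM in KO livers, against 1360.5, 1188.5, 1280.1 and 1331 CPM in WT livers (log2 fold change -0.99 ± 0.15, adjusted p = 1.7e-05). KO libraries lay below WT libraries in both, with a spread within groups much smaller than the gap. Coq10a, a coenzyme Q binding protein, was among the genes with the smallest adjusted p, with 15.8 to 19.3 CPM in KO livers and 51.6 to 65.8 CPM in WT livers. The share of mitochondrially encoded counts, given above, was lower in KO libraries as well.

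Genes that fell came from both ends of the liver lobule. Of 15 pericentral hepatocyte genes, 11 fell (median -1.51), and of 14 periportal genes, 8 fell (median -1.01), with none higher in either list; without KO 2 or KO 3 the periportal count was 5. Glul, glutamine synthetase of the cells next to the central vein, had 85.0, 88.6, 56.0 and 112 CPM in KO livers, against 529, 612, 737 and 988 CPM in WT livers. The Wnt target Axin2 fell by 1.87 ± 0.41 and Cyp1a2 by 2.62 ± 0.54. Cyp2e1, the enzyme that converts CCl4 to its radical, had 163, 192, 216 and 481 CPM in KO livers, against 1234.5, 853, 1103 and 978 CPM in WT livers (log2 fold change -1.99 ± 0.43, adjusted p = 0.0014). KO 4 thus stood well above the other 3 KO livers and still below all WT livers.

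In the periportal list the urea cycle genes Cps1, Ass1, Asl and Arg1 fell by 1.36 ± 0.25, 1.83 ± 0.40, 1.36 ± 0.29 and 1.08 ± 0.22, and Cyp2f2 by 2.13 ± 0.40. Of 19 cytochrome P450 genes, 10 fell and Cyp2b9 rose (median -1.13). Cyp2b9, a steroid-metabolising enzyme of mouse liver, had 275, 146, 166 and 232 CPM in KO livers, against 30.1, 7.74, 1.05 and 0.872 CPM in WT livers. Of 13 genes of gluconeogenesis and glucose use, 3 fell (23.1%, against 12.5% of all genes tested, median -0.74). Among them were Pygl, liver glycogen phosphorylase, by 1.97 ± 0.38 and the amino acid enzyme Tat by 2.08 ± 0.45.

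Markers of hepatocytes as a class did not vanish. Albumin (Alb) had 75624 to 97732 CPM in KO livers and 55124 to 89209 CPM in WT livers, and its log2 fold change of 0.33 ± 0.23 did not pass the test. The summed level of 12 hepatocyte-defining genes, most of it Alb, was 91844 to 119160 CPM in KO livers and 81373 to 118440 CPM in WT livers. Of these genes, 5 were lower (41.7%, against 12.5% of all genes tested) and none higher (median -0.56). The count of lower members was 3 without KO 2, KO 3, WT 2 or WT 3. Hnf4a, the transcription factor that defines these cells, was at -0.15 ± 0.25. Of 13 genes of the growth hormone and IGF1 axis, 3 fell (23.1%, against 12.5% of all genes tested). The median was -0.65, and -0.20 without WT 2. The 3 were the hormone's transcription factors Stat5a, by 1.67 ± 0.14 (adjusted p = 1.3e-09), and Stat5b, by 1.20 ± 0.16, and the binding protein Igfbp2, by 1.48 ± 0.33. Igf1 itself was at -0.11 ± 0.23.

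Acute-phase genes, which hepatocytes secrete in response to inflammatory cytokines, went the other way in 15 of 20, which rose, and none fell (median 1.23). Saa3 had 129, 178, 58.2 and 296 CPM in KO livers, against 17.6, 9.07, 8.23 and 23.6 CPM in WT livers (log2 fold change 3.50 ± 0.45, adjusted p = 2.6e-06). Lipocalin Lcn2, an iron-siderophore binder, had 1529, 1985, 949 and 3964 CPM in KO livers, against 170, 496, 188 and 115 CPM in WT livers. In both genes KO 4 was the highest liver and KO 3 the lowest of its group, with no overlap between groups.

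The pentraxin Apcs had 388 to 988 CPM in KO livers and 46.4 to 127 CPM in WT livers, and Itih3 had 1332 to 3136 CPM in KO livers and 729 to 920.2 CPM in WT livers. The fibrinogen chain Fgb rose by 1.20 ± 0.30, although KO 3, at 6742 CPM, lay below the highest WT liver, at 6911 CPM. Single libraries mattered for the count of this list: without KO 4 it was 6. Saa1 and Saa2 are near-identical, and their values (856 to 8750.0 and 567 to 9227 CPM in KO livers, 164 to 1277 and 99.5 to 1394 CPM in WT livers) overlapped between groups. Saa1 rose by 2.63 ± 0.73 and Saa2 by 2.65 ± 0.87; without KO 4 neither was called (adjusted p = 0.0661 and 0.162), and Saa2 was not called without WT 1, WT 2 or WT 3 either (adjusted p 0.0578 to 0.0821). Hamp, the iron hormone hepcidin, was at -0.03 ± 0.55.

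Stress genes rose in part, with 6 of 16 higher and none lower (median 0.90). Hspa5, the main chaperone of the endoplasmic reticulum, had 1763, 3629, 2816 and 4189.9 CPM in KO livers, against 1276, 1169, 1368 and 726 CPM in WT livers (log2 fold change 1.45 ± 0.32, adjusted p = 0.0016). Trib3 rose by 2.27 ± 0.63, the cystine carrier Slc7a11 by 1.91 ± 0.51, Ddit3, which encodes the death-promoting factor CHOP, by 1.57 ± 0.44 and the stress cytokine Gdf15 by 1.23 ± 0.35. KO 1 was the lowest KO liver for each of these 5 genes, and Ddit3 lost its call without KO 4 (adjusted p = 0.0551). The oxidative stress genes Hmox1 and Nqo1 were at -0.08 ± 0.21 and -0.24 ± 0.37. Of 12 fetal and stressed hepatocyte genes 3 rose, namely alpha-fetoprotein Afp by 1.57 ± 0.40, Sox9, a factor of bile duct and injured hepatocyte cells, by 1.91 ± 0.32 and Ly6d by 2.09 ± 0.52.

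**Figure D3:**
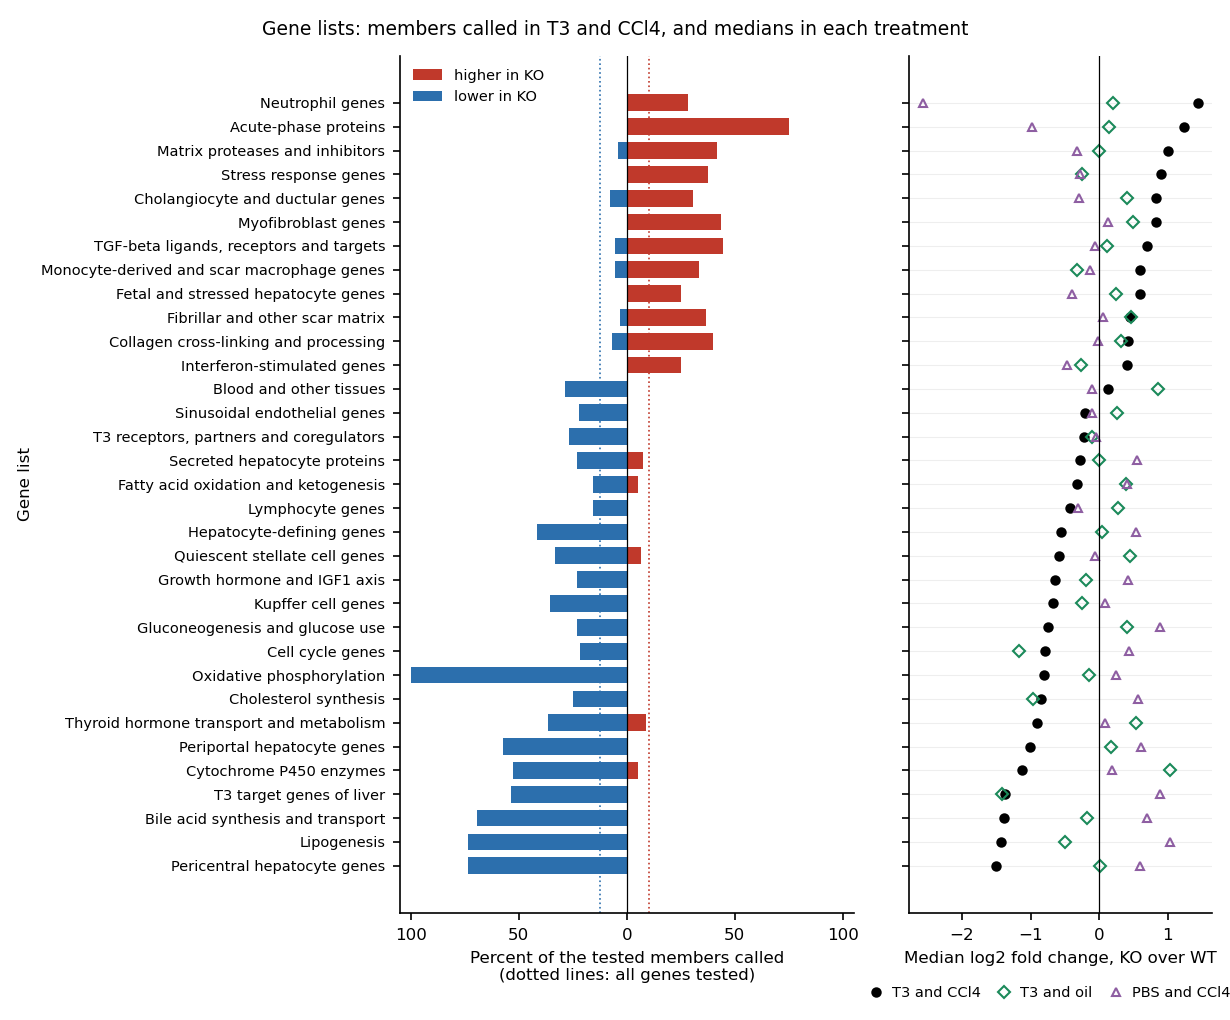
Left, the percent of each list's tested members called higher (red, to the right) or lower (blue, to the left) in KO, with dotted lines at the 10.4% and 12.5% of all genes tested; right, the median log2 fold change of KO over WT of each list on T3 and CCl4 (black circles), T3 and oil (green diamonds) and PBS and CCl4 (purple triangles). Oxidative phosphorylation is lower in all 20 members, and acute-phase proteins are higher in 15 of 20.

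Matrix genes of the scar were higher in KO livers for a minority of the list, and the main fibrillar collagens were among the less certain. Of 30 genes tested, 11 rose and 1 fell (median 0.45, and 0.30 without KO 1). Col1a1, the alpha1 chain of type I collagen, had 32.3, 22.5, 32.2 and 11.5 CPM in KO livers, against 5.03, 12.7, 9.40 and 11.7 CPM in WT livers (log2 fold change 1.35 ± 0.42, adjusted p = 0.021). The call was lost without KO 1, KO 3, WT 1 or WT 3 (adjusted p 0.0524 to 0.0746). KO 4 lay within the WT range, and the other 3 KO livers above it. Col1a2, at 0.82 ± 0.38, and Col3a1, at 0.58 ± 0.41, did not pass the test (adjusted p = 0.13 and 0.32).

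The clearer rises were in Tnc, an extracellular glycoprotein of wounds, with 15.2, 17.1, 13.9 and 10.1 CPM in KO livers, against 2.61, 1.45, 1.61 and 0.381 CPM in WT livers (log2 fold change 3.20 ± 0.43, adjusted p = 3.7e-06). The basement membrane collagens Col4a1 and Col4a2 had 75.3 to 130 and 40.4 to 83.1 CPM in KO livers, against 38.5 to 52.8 and 25.8 to 38.5 CPM in WT livers. The proteoglycan Vcan rose by 2.13 ± 0.44. Col12a1, a fibril-associated collagen, fell by 1.05 ± 0.27, with 6.03 to 8.48 CPM in KO livers and 12.9 to 16.7 CPM in WT livers. Without KO 1 the count of higher members was 7. The summed level of the list overlapped between groups, at 3408 to 4911 CPM in KO livers and 3803 to 4901 CPM in WT livers. Members with CPM values printed here lay at or under 130 CPM, so the sum says little about them.

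Enzymes that process collagen rose in 6 of 15 genes and fell in 1 (median 0.42). Loxl4, a lysyl oxidase that cross-links collagen, had 28.1, 32.1, 25.1 and 21.2 CPM in KO livers, against 3.26, 2.91, 2.06 and 1.80 CPM in WT livers (log2 fold change 3.41 ± 0.55, adjusted p = 5.4e-05). Loxl2 rose by 1.36 ± 0.25, Lox by 1.85 ± 0.48 and the collagen chaperone Serpinh1 by 1.08 ± 0.23, whereas the lysyl hydroxylase Plod1 fell by 0.63 ± 0.12. For Lox the groups overlapped, since KO 4 had 1.07 CPM.

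Of 24 proteases and inhibitors tested, 10 rose, 1 fell and 13 were not called (median 1.01). The summed level of the list overlapped between groups, at 1784 to 2157 CPM in KO livers and 1779.7 to 2129 CPM in WT livers. That sum says little about members at low levels, such as Timp1 and Mmp12 below. Timp1, the inhibitor of metalloproteinases, had 12.1, 9.86, 13.2 and 10.6 CPM in KO livers, against 1.68, 2.38, 1.57 and 1.85 CPM in WT livers (log2 fold change 2.62 ± 0.46, adjusted p = 0.00013). The macrophage elastase Mmp12 had 63.8, 37.5, 31.4 and 25.2 CPM in KO livers, against 10.3, 7.04, 8.07 and 11.1 CPM in WT livers. Neither gene overlapped between groups. The collagenase Mmp13 rose by 2.78 ± 0.56 and the membrane-bound Mmp14 by 0.90 ± 0.18. Mmp2 was at -0.35 ± 0.38 and the inhibitors Timp2 and Timp3 at -0.08 ± 0.25 and 0.36 ± 0.27. The fall of Mmp19, by 0.52 ± 0.17, was lost without any of 7 libraries (adjusted p 0.0512 to 0.0769).

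Myofibroblast genes rose in 7 of 16, with none lower (median 0.83), while genes of resting stellate cells fell in 5 of 15 and rose in 1 (median -0.58). Acta2, smooth muscle actin, had 20.1, 16.03, 14.7 and 5.75 CPM in KO livers, against 1.63, 3.14, 1.65 and 0.817 CPM in WT livers (log2 fold change 2.97 ± 0.60, adjusted p = 0.00061). Tagln, an actin-binding protein of contractile cells, had 18.8 to 52.5 CPM in KO livers and 4.14 to 8.25 CPM in WT livers. KO 4 was the lowest KO liver for both genes and for Col1a1, Tnc, Col4a1, Vim and Lox. The growth factor receptor Pdgfrb rose by 0.86 ± 0.17 and Vim by 1.06 ± 0.22.

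In the resting stellate list, the collectin Colec11 had 19.1, 19.2, 15.5 and 14.3 CPM in KO livers, against 22.4, 29.3, 34.2 and 37.8 CPM in WT livers, with no overlap. Colec11 fell by 0.86 ± 0.23 and its relative Colec10 by 0.83 ± 0.21, Lrat, which stores retinol, was at -0.52 ± 0.26 and not called, and the filament gene Nes rose by 1.34 ± 0.33. The summed levels were 694 to 974 CPM in KO livers and 447 to 561 CPM in WT livers for the myofibroblast list, and 218 to 334 CPM in KO livers and 319 to 508 CPM in WT livers for the resting stellate list.

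Of 18 TGF-beta ligands, receptors and targets, 8 rose and 1 fell (median 0.69). The matricellular targets Ccn1 and Ccn2 rose by 1.60 ± 0.34 and 1.85 ± 0.65 (Ccn2 lost its call without any of 6 libraries, KO 2, 3 or 4 or WT 2, 3 or 4, adjusted p 0.0576 to 0.106), and the activin subunits Inhba and Inhbe by 1.38 ± 0.31 and 3.05 ± 0.61. Inhbe, made by hepatocytes, had 27.9 to 75.0 CPM in KO livers and 1.36 to 8.2004 CPM in WT livers. Tgfb1 itself was at 0.05 ± 0.19 (adjusted p = 0.89). The count of higher members was 4 without KO 2, WT 2 or WT 3 and 5 without KO 3.

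**Figure D4:**
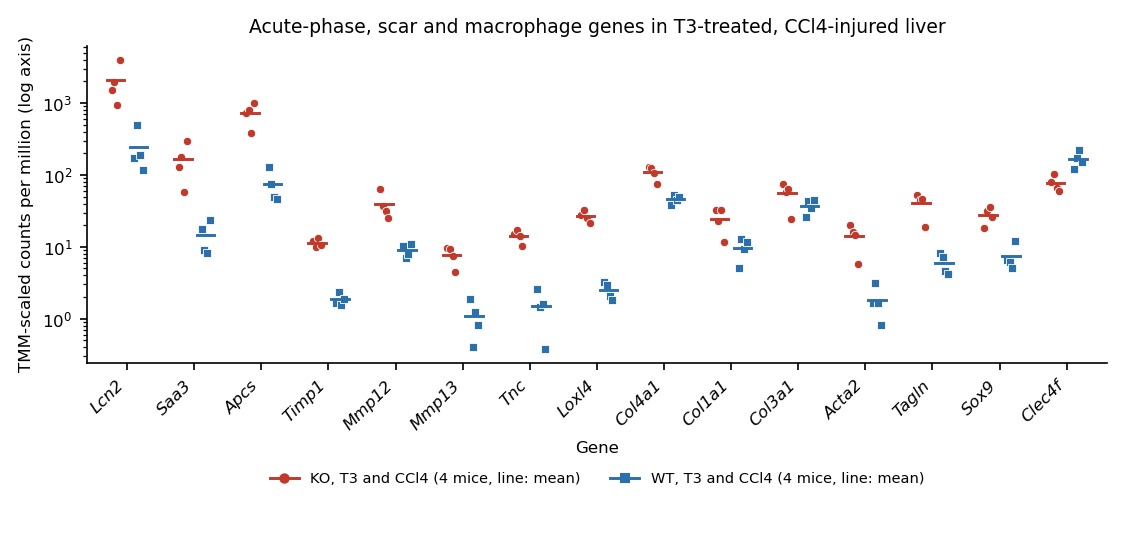
Points are TMM-scaled CPM of single mice on a log axis, KO on the left (red circles) and WT on the right (blue squares) of each gene, with lines at the group means. Lcn2, Timp1, Mmp12, Loxl4 and Tagln do not overlap between groups, Col1a1 and Col3a1 do, and Clec4f, a Kupffer cell gene, is lower in all 4 KO livers.

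Macrophage genes moved in both directions. Of 14 genes of resident Kupffer cells, 5 fell and none rose (median -0.68), and of 18 genes of monocyte-derived and scar macrophages, 6 rose and 1 fell (median 0.59). Clec4f, the lectin that defines Kupffer cells in mice, had 80.5, 103, 64.9 and 59.0 CPM in KO livers, against 120, 171, 221 and 150 CPM in WT livers (log2 fold change -1.11 ± 0.30, adjusted p = 0.0078). Vsig4, a complement receptor, fell by 1.04 ± 0.28 and Timd4 by 0.94 ± 0.27, the second being lost without KO 3 or WT 2 (adjusted p 0.0501 and 0.051). The count of the Kupffer list was 2 without KO 3 and 3 without WT 2 or WT 3.

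Cd14, the endotoxin co-receptor, had 53.2, 128, 142 and 100 CPM in KO livers, against 15.3, 21.8, 15.8 and 9.26 CPM in WT livers. The monocyte attractant Ccl2 rose by 2.14 ± 0.57, the integrin Itgam by 1.51 ± 0.34 and the tetraspanin Cd9 by 1.47 ± 0.29, whereas Trem2 and Gpnmb, genes of scar-associated macrophages, were at -0.16 ± 0.43 and -0.01 ± 0.47. The lipid carrier Fabp5 fell by 1.64 ± 0.53, a call lost without KO 3 or WT 4 (adjusted p 0.0969 and 0.158). Summed levels were 700 to 1028 CPM in KO livers and 858 to 1283 CPM in WT livers for Kupffer genes, and 560 to 958 CPM in KO livers and 513 to 711 CPM in WT livers for monocyte-derived macrophage genes. How far shifts in these cells account for the matrix and protease values was not tested.

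Lists of other cell types had a few called genes each. Of 7 neutrophil genes tested, 2 rose, Lcn2, which injured hepatocytes also make, and S100a9, a calcium-binding protein of myeloid cells, with 11.9 to 26.3 CPM in KO livers and 4.32 to 6.05 CPM in WT livers; S100a9 lost its call without any of 6 libraries (KO 2 or 4, WT 1 to 4, adjusted p 0.0563 to 0.126). The neutrophil genes Ly6g, Mpo, Elane and Camp were too low to be tested. The summed level of the list, most of it Lcn2, was 985 to 4028 CPM in KO livers and 141 to 515 CPM in WT livers. Of 19 lymphocyte genes, 3 fell (15.8%), a share near the 12.5% of all genes tested, the B cell genes Ighm and Ms4a1 among them. Ighm, the IgM heavy chain, had 15.5, 7.55, 7.96 and 8.91 CPM in KO livers, against 89.2, 98.1, 84.9 and 563 CPM in WT livers, and Ms4a1 fell by 1.44 ± 0.42. The summed level of the list was 21.7 to 29.3 CPM in KO livers and 110.3 to 588 CPM in WT livers, where most of it was Ighm. The T cell gene Cd3e was at -0.43 ± 0.43.

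Of 13 bile duct genes, 4 rose (30.8%, against 10.4% of all genes tested) and 1 fell (7.69%, against 12.5%). Cldn4, a tight junction protein, had 1.83 to 7.55 CPM in KO livers and 0.363 to 1.07 CPM in WT livers, the stem cell marker Prom1 fell by 2.19 ± 0.45, and Epcam was at 0.60 ± 0.51; the count of higher members was 2 without KO 1, WT 1 or WT 3. Of 18 sinusoidal endothelial genes, 4 fell (22.2%, against 12.5% of all genes tested). Ehd3, which fell by 1.27 ± 0.20, was the firmest, and Stab2 was at -0.22 ± 0.16. The count of lower members was 1 or 2 without KO 3, KO 4, WT 3 or WT 4. Of 20 interferon-stimulated genes, 5 rose (median 0.41), led by the nucleic acid sensor Zbp1, which rose by 1.32 ± 0.34, and the count was 2 or 3 without WT 1, WT 3 or WT 4.

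Cell cycle genes were low in both groups. Of 23 tested, 5 fell (21.7%, against 12.5% of all genes tested, median -0.79). The firmest was Rrm2, a subunit of ribonucleotide reductase, with 5.73, 6.39, 6.55 and 4.23 CPM in KO livers, against 18.5, 31.99, 29.3 and 31.4 CPM in WT livers. Mki67 had 2.22 to 3.68 CPM in KO livers and 4.10 to 7.68 CPM in WT livers and narrowly missed the threshold (adjusted p = 0.053). The count of the list was 2 without KO 3, KO 4 or WT 2, 1 without WT 3, and 9 when the 8 libraries alone were fitted. The pancreatic elastase Cela2a had 0.190 to 0.932 CPM in KO livers and 5.24 to 11.2 CPM in WT livers.

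The effect of the knockout on injured livers was next compared with and without hormone. On PBS and CCl4, 351 genes (2.25% of those tested) differed between KO and WT livers, 189 higher (1.21%) and 162 lower (1.04%), none of these libraries being shared with the comparison on T3. The difference between both genotype effects, which contains the effect on T3 and CCl4 itself, passed the test for 3538 genes (22.7%), 1603 of them positive and 1935 negative, where positive means a genotype effect that was higher on T3. Of the 3566 genes called on T3 and CCl4, 165 were called in the opposite direction on PBS and CCl4, which is 4.63% of these calls and 47.01% of the 351 there, while 4 were higher and 1 lower in both. Within their groups, 3 PBS and CCl4 libraries lay far from the mean (KO 3 at a Euclidean distance of 77.9 over log2 CPM, WT 2 at 85.3 and WT 4 at 68.7, against 32.1 to 49.3 in the 8 libraries on T3 and CCl4). Without these 3 libraries, 4648 genes passed the test of the difference. That left KO 1, 2 and 4 and WT 1 and 3 on PBS and CCl4. The 3 were picked for their distance, and leaving them out lowers the spread within groups. Values given below without them are therefore no independent check.

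Dio1 gave the smallest adjusted p for that difference. On PBS and CCl4 it averaged 11.8 ± 7.13 CPM in KO livers and 0.726 ± 0.247 CPM in WT livers (SD, n = 4 each), higher in KO by 3.996 ± 0.35 log2 units, the reverse of its fall on T3. The difference was -7.14 ± 0.46 (adjusted p = 3e-11), and -7.23 ± 0.41 without the 3 libraries. Gpd2 turned likewise, at 49.4 ± 13.2 CPM in KO livers and 16.5 ± 4.24 CPM in WT livers on PBS and CCl4 (SD, n = 4 each), with a difference of -3.14 ± 0.27. KO levels of Gpd2 were thus close on T3 and on PBS, and the WT levels moved.

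Slc22a7, an organic anion transporter, had 4.14, 6.22, 3.22 and 5.06 CPM in KO livers and 296, 284, 257 and 554 CPM in WT livers on T3 and CCl4, against 6.32 ± 5.404 CPM in KO livers and 0.528 ± 0.594 CPM in WT livers on PBS and CCl4. The difference was -9.79 ± 0.75 for this gene, -3.17 ± 0.26 for Slc25a45, a mitochondrial carrier, -5.08 ± 0.44 for Fndc5 and -8.72 ± 0.71 for Dnah11, and without the 3 libraries all of them and Gpd2 stayed called, with adjusted p of 7.9e-08 or less. In the hormone comparison 9 of 15 T3 target genes had a negative difference that passed the test, against 12.4% of all genes, as did 12 of 15 lipogenesis genes, 9 of 13 bile acid genes and all 20 genes of oxidative phosphorylation. Without the 3 libraries these counts were 11, 12, 10 and 20.

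Among the acute-phase genes 16 of 20 had a positive difference (14 without the 3 libraries), and their median genotype effect was -0.98 on PBS and CCl4, against 1.23 on T3 and CCl4. Lcn2 had 72.1 ± 28.2 CPM in KO livers and 750.45 ± 636 CPM in WT livers on PBS and CCl4, and its difference was 6.50 ± 0.90 (6.24 ± 0.90 without the 3 libraries). For cholesterol synthesis 13 of 20 members had a negative difference, and 3 did without the 3 libraries. For Kupffer cell genes 2 of 14 did, and 10 without them.

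The effect was also compared between injured and uninjured livers, both on T3. On T3 and oil, 2549 genes (16.3%) differed between KO and WT livers, 1113 higher (7.14%) and 1436 lower (9.21%). Of the genes called on T3 and CCl4, 218 were higher in both settings (13.4% of the higher genes on CCl4 and 19.6% of those on oil), 509 were lower in both (26.2% and 35.4%) and 102 were opposite. The difference between CCl4 and oil passed the test for 2099 genes (13.5%), 967 higher and 1132 lower with CCl4. The count of 2099 was 1293 without KO 3 on T3 and CCl4 and 1328 without WT 4 on T3 and oil.

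For hormone targets the genotype effects with and without injury are given side by side. Dio1 fell by 3.23 on T3 and oil and by 3.14 on T3 and CCl4, with 114 ± 12.4 CPM in KO livers and 1067 ± 146 CPM in WT livers on oil (SD, n = 4 each), and its difference of 0.09 did not pass the test (adjusted p = 0.91). None of the 15 T3 target genes had a negative difference that passed, and 1 had a positive one. The median of that list was -1.37 in injured livers and -1.42 in livers given oil. Serpina7 rose by 5.19 on oil and by 4.49 with CCl4, and Mt2 by 3.97 and 4.36.

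Other lists had lower genotype effects in injured livers than on oil. Of 20 oxidative phosphorylation genes, 12 had a negative difference, against 7.26% of all genes (median genotype effect -0.80 with CCl4, -0.14 on oil). So had 8 of 15 pericentral genes (medians -1.51 and 0.02), 5 of 13 bile acid genes (medians -1.38 and -0.18) and 11 of 19 cytochrome P450 genes (medians -1.13 and 1.02). On oil, 5 pericentral genes were called higher in KO and 0 lower, and 9 cytochrome P450 genes higher and 3 lower. Cyp2e1 turned: it had 4130 ± 354 CPM in KO livers and 1071 ± 193 CPM in WT livers on T3 and oil (SD, n = 4 each), higher in KO by 1.95, while with CCl4 it fell by 1.99, a difference of -3.93 ± 0.61 (adjusted p = 0.00038).

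Several Cyp2c genes carried the strongest differences. Cyp2c50 had 922 ± 165 CPM in KO livers and 3.84 ± 2.36 CPM in WT livers on T3 and oil, but 86.8, 88.2, 69.6 and 125 CPM in KO livers and 178, 23.6, 21.1 and 11.4 CPM in WT livers with CCl4. Cyp2c37 had 1223 ± 91.1 CPM in KO livers and 29.5 ± 10.9 CPM in WT livers on oil, and 96.6 to 209 CPM in KO livers and 83.9 to 437 CPM in WT livers with CCl4. The differences were -7.26 ± 0.95 for Cyp2c50, -5.80 ± 0.69 for Cyp2c37 and -6.85 ± 0.86 for Cyp2c69. None of the 3 was called between genotypes with CCl4, where WT 1 stood above the other WT livers, and these genes have close copies.

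Zfp324, a zinc finger protein, rose by 1.398 ± 0.20 with CCl4 and fell by 0.78 ± 0.21 on oil, a difference of 2.18 ± 0.29. P3h1, a collagen prolyl hydroxylase, fell by 1.05 ± 0.14 on oil, a difference of 1.46 ± 0.20, and its rise of 0.40 ± 0.14 with CCl4 was lost without any of 7 libraries (adjusted p 0.0501 to 0.187). Of 20 acute-phase genes, 5 had a positive difference, against 6.2% of all genes, as did 6 of 24 proteases and inhibitors and 4 of 18 monocyte-derived macrophage genes. Mmp12 had 0.493 ± 0.338 CPM in KO livers and 2.74 ± 3.73 CPM in WT livers on T3 and oil, lower in KO by 2.47, and its difference was 4.58 ± 0.82 (adjusted p = 0.0012). Col12a1 fell in both settings, by 2.61 on oil and by 1.05 with CCl4, a difference of 1.56 ± 0.39 (adjusted p = 0.010). For Acta2 the difference of 1.39 did not pass (adjusted p = 0.28), so its rise with CCl4 was not shown to exceed that on oil.

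**Figure D5:**
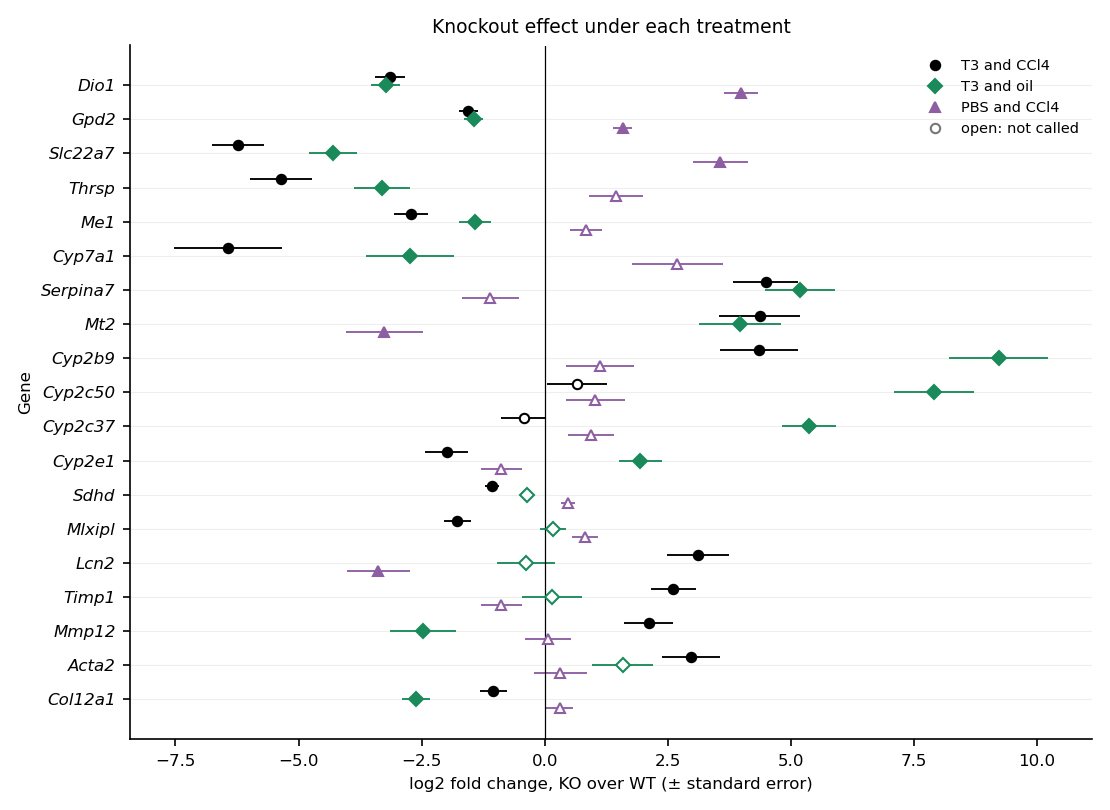
Points are the log2 fold change of KO over WT with its standard error on the x axis for each gene on T3 and CCl4 (black circles), T3 and oil (green diamonds) and PBS and CCl4 (purple triangles), filled where called. Dio1, Gpd2 and Slc22a7 lie left of 0 on T3 with either CCl4 or oil and right of 0 on PBS and CCl4, Cyp2e1 changes side between CCl4 and oil, and Lcn2 and Timp1 are called higher on T3 and CCl4 alone of these 3 settings.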

How the data were processed

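Poly(A) RNA of 32 mouse livers was sequenced. The 8 libraries of KO and WT mice on T3 and CCl4 are the subject, and the other 24 entered the fit. The authors deposited 1 table of read counts per gene, which are unnormalized whole numbers. FastQC 0.11.5, Trim Galore, cutadapt, STAR 2.7.9a and the build GRCm38 are named in the submitters' processing notes. For the counting tool, strand setting and annotation, the sources used here give no name. Per the labels' protocols, libraries were made with a stranded or an unstranded TruSeq kit. Which library used which kit is not given, so overlapping and antisense genes cannot be told apart. Replicates are separate mice, by the animal numbers in the labels.

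Columns were matched to mice by animal number. Of 52636 gene IDs, 52403 matched a GENCODE annotation of GRCm38, and the other 233 held at most 0.0656% of a library's counts. Genes passing edgeR's filterByExpr with a minimum count of 10 were kept (15599). edgeR 4.0.16 in R 4.3.3 fitted all 8 groups together, with TMM scaling (factors 0.925 to 1.18 in KO libraries, 0.896 to 0.970 in WT libraries). The quasi-likelihood F test, with Benjamini-Hochberg adjustment over all genes tested, was applied to the genotype effect on T3 and CCl4 and to its differences from the effects on PBS and CCl4 and on T3 and oil. Both differences contain the libraries of the first comparison. The procedure was tested on simulated data.

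The 33 gene lists, and the rule by which genes were named, were chosen with earlier results of these data known, so lists are described by counts and medians, with no test of the list. The lists hold 516 different genes, and some genes are in more than 1 list, so the list counts are not independent of each other. The rule named Thrb, Thra and Dio1, the 12 largest rises and the 12 largest falls among called genes with at least 5 CPM in a group and no overlap, and the 10 smallest adjusted p. It also named up to 5 called members per list, up to 3 that went against the direction of a list, and the 6 smallest adjusted p of each difference. Genes named as not called, the relaxed motif AGGTNA and a few further genes were chosen after their values were seen. Intervals and floors cover counting error only. Alternatives were DESeq2 1.42.0, its size factors, total counts alone, no filter on low counts, the compared groups alone, a replicate block and each library left out in turn. Leaving out 3 scattered PBS libraries, and the block within the compared groups alone, were chosen after seeing the data. Some genes are counted in their lists and not reported here by name.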

Additional observations from a re-analysis of the deposited data

Results flagged for a closer look

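A library stood apart from the other 3 of its group, by a gap that took up most of the group's range, for 26 of the 412 group and gene combinations examined, where chance gives about 1 in 20. By library, the flags fell on KO 1 (3), KO 2 (3), KO 4 (2), WT 1 (4), WT 2 (3), WT 3 (1) and WT 4 (10), and none fell on KO 3. In WT 4, the lowest or highest CPM of the WT group were those of Acadvl (397.6), Asgr1 (500.0), Coq10a (65.76), Fndc5 (21.96), Hamp (1358), Hr (22.45), Ighm (563.2), Pdgfrb (23.27), Slc22a7 (554.3) and Sult1a1 (961.0). In WT 1 they were those of Cyp2c37 (436.9), Cyp2c50 (178.1), Serpina4-ps1 (1.118) and Tat (2929), in WT 2 those of Ddit3 (26.4), Mup15 (148.2) and Mup18 (200.2), and in WT 3 that of Itih3 (729.1). Among KO libraries they were those of Mmp2 (6.694), Slc7a11 (8.544) and Slco1a4 (29.68) in KO 1, of C6 (14.87), Cyp3a44 (55.45) and Mki67 (3.685) in KO 2, and of Cyp2e1 (480.8) and Thra (5.688) in KO 4.

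The genotype effect differed between hormone states on CCl4 for 3538 genes, led by Dio1 (-7.14 log2 units), Slc22a7 (-9.79), Dnah11 (-8.72), Slc25a45 (-3.17), Fndc5 (-5.08) and Gpd2 (-3.14). Without the 3 scattered PBS libraries these were -7.23, -11.0, -9.06, -3.18, -5.09 and -3.38. It differed between CCl4 and oil on T3 for 2099 genes, led by Cyp2c37 (-5.80), Mup-ps13 (-4.25), Cyp2c69 (-6.85), Cyp2c50 (-7.26), Zfp324 (2.18) and P3h1 (1.46).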

How the results depend on the processing

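The 3566 calls on T3 and CCl4 became 3818 with DESeq2, 2918 without a filter on low counts, 4532 with the 8 libraries alone and 2562 (without KO 3) to 3512 (without KO 1) with a library left out. Calls of the hormone difference (3538) were 2300 with the compared groups alone, and 2684 to 4665 with a library left out. Calls of the injury difference (2099) were 3489 with the compared groups alone, and 1293 (without KO 3 on T3 and CCl4) to 2366 with a library left out. They were 1328 without WT 4 on T3 and oil. The causes were not tested. Scaling by total counts alone moved the median of all genes by 0.14, 0.25 and 0.25 in the 3 comparisons, and the share of positive calls to 61.1%, 67.8% and 73.2%, against 45.5%, 45.3% and 46.1%. No gene called under both settings changed sign, though shifts of this size would rarely turn the sign of a called gene.

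Of 188 called values of named genes, 148 passed under every setting and 40 were lost under at least 1. No called value changed sign. Uncalled values that did were Cyp2c37, Gpnmb, Hamp, Igf1, Nqo1, Tgfb1, Timp2 and Trem2 with a library left out (ranges -0.69 to 0.41, -0.28 to 0.40, -0.41 to 0.26, -0.29 to 0.048, -0.69 to 0.011, -0.072 to 0.11, -0.24 to 0.17 and -0.41 to 0.18). With total counts alone, Gpnmb was at 0.17, Hamp at 0.051, Hmox1 at 0.060 and Timp2 at 0.076. Gpnmb was also at 0.011 with the 8 libraries alone, at 0.030 without a filter and at 0.14 with the replicate block. List counts stayed within 1.5 times in 857 of 990 recomputations. Many of these counts were 0 in the main fit, so the figure says less about the larger counts.

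Replicate numbers are shared between groups. Deviations of same-numbered KO and WT libraries on T3 and CCl4 correlated at -0.08, 0.09, -0.04 and -0.11. In no such pair was each library the best match of the other. These values show no pairing by number, and whether mice shared a litter, batch or day is not given. A replicate block gave 3558 calls on T3 and CCl4, 3509 for the hormone difference and 2157 for the injury difference. With the 8 libraries alone, the block gave 3830 calls on T3 and CCl4, against 4532 without it. Acute-phase genes then had 11 higher and 1 lower, against 14 and 0 without the block. Scar matrix genes had 7 higher and 1 lower, against 11 and 2.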

Other observations

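The genotype effect was called in all 3 settings (T3 with CCl4, T3 with oil, PBS with CCl4) for 64 genes, and these settings share no library. Of these, 49 were lower in KO livers in both T3 settings and higher on PBS and CCl4, 13 ran the opposite way, and 2 were higher in all 3. The genes named here were chosen after their values were seen. Mgll, which breaks down monoglycerides, had 144, 131, 116 and 179 CPM in KO livers, against 391.6, 612, 541 and 328 CPM in WT livers on T3 and CCl4. Its log2 fold change of KO over WT was -1.72 ± 0.24 in injured livers on T3, -1.11 ± 0.23 in livers on T3 and oil, and 1.53 ± 0.24 in injured livers on PBS (SE, n = 4 mice per group). Cyp17a1, a steroid hydroxylase, was at -2.94 ± 0.43, -3.14 ± 0.44 and 2.43 ± 0.43 in the same order. The urea cycle enzyme Arg1 was at -1.08 ± 0.22, -0.93 ± 0.22 and 1.02 ± 0.22, and Stat5a at -1.67 ± 0.14, -1.18 ± 0.14 and 0.58 ± 0.14.

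Ndrg1, a gene that responds to low oxygen and stress, ran the opposite way, at 1.90 ± 0.34, 2.47 ± 0.35 and -1.77 ± 0.33, as did Mt2, at 4.36 ± 0.83, 3.97 ± 0.84 and -3.26 ± 0.78. The hormone difference on CCl4 was -3.65 for Mgll, -5.18 for Cyp17a1 and 3.27 for Ndrg1 without the 3 scattered PBS libraries. The 2 genes higher in KO livers in all 3 settings were Mup3, at 3.002 ± 0.41, 4.65 ± 0.45 and 1.74 ± 0.39, and Gm18562, at 5.29 ± 0.67, 5.28 ± 0.77 and 9.63 ± 1.03. Mup3 belongs to a family with near-identical copies.

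Secreted hepatocyte proteins were mixed on T3 and CCl4, with 3 of 13 lower (23.1%, against 12.5% of all genes tested) and 1 higher (7.69%, against 10.4%). The median was -0.28, and -0.16 without KO 3. Apoc3, an inhibitor of triglyceride clearance, had 1075 to 1683 CPM in KO livers and 2712 to 4636 CPM in WT livers, and antithrombin (Serpinc1) had 1076 to 1557 CPM in KO livers and 2194 to 2723 CPM in WT livers.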
